A study of Mus musculus with 14 samples.

Results

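This account covers the open chromatin of mouse interferon-induced genes, as given by 195 peaks at 56 genes out of 92842 peaks at 19105 genes in a merged list. A peak was counted when the gene named as nearest has a name beginning with Ifi, Ifit, Oas, Gbp or Irgm followed by a letter or digit of the family, or is Isg15, Isg20, Mx1, Mx2, Iigp1, Igtp, Rsad2, Ifih1 or Ddx58. The libraries are of ATAC-seq, an assay that finds open chromatin by where the transposase Tn5 can insert, and 7 cell types were sorted from wild-type C57BL/6 mice aged 8 to 12 weeks. Bone marrow gave the multipotent (MPP), common myeloid (CMP), common lymphoid (CLP) and granulocyte/macrophage (GMP) progenitors, those of megakaryocytes and erythroid cells (MEP) and those of B cells (ProB). Thymus gave the T cell progenitors (ProT), and each type has 2 libraries, 14 in all. The labels name no interferon treatment and no infection, and leave unsaid whether different animals gave the 2 libraries. The list merges the peaks of all cell types, so it carries no value per library or per cell type. Depth is unknown, no spread between libraries can be given, no cell types are compared, and markers of the sorted cells cannot be checked. An interval below is an exact (Clopper-Pearson) 95% interval and covers counting error only. Peaks of 1 gene are not independent, so an interval over peaks is too narrow.

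Interferons are secreted proteins that warn cells of viruses and other intracellular microbes. The signal of types I and III ends at the interferon-stimulated response element (ISRE) in the promoters of the induced genes, where a complex that contains IRF9 binds, while that of type II interferon ends at the gamma-activated site (GAS). The products of the induced genes sense foreign RNA and DNA, block viral entry and translation, or attack the compartments in which microbes live. Blood stem and progenitor cells respond to interferons as well, and part of the response is known to be active in them without infection. The rule goes by name and not by behaviour: Ifitm5 is known from bone, and Ifitm10 is not known as a classical interferon target.

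The starts of many of these genes share a short sequence, which is shown first because peaks often lie at or near it. The windows are RefSeq promoter sequences of GRCm38.p6, from 250 bases before to 50 after each start, and 49 of the 68 genes of the RefSeq gene table that carry such a name have 58 windows between them. The ISRE core searched was TTTC, any 2 bases and TTTC again, on both strands (GAAA, any 2 bases and GAAA on the other). Each sequence below runs 5′ to 3′ in the direction of its gene, with 1 core in capitals. The stretches of Isg15, Ifit1bl2 and Oas1a hold further cores, left in lower case. Each comes from a gene with a peak within 1 kb of the start and a core in the window, with at most 2 genes per family and those with the closest peak first. All but those of Ifitm3, Ddx58 and Ifih1 lie before the start. The core of Ifitm3 lies outside the bounds of its nearest peak, whose centre is 741 bp upstream of the start.
Isg15, chr4:156200850-156200909, minus strand: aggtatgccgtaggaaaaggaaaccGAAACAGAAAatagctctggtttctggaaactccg
Rsad2, chr12:26456538-26456597, minus strand: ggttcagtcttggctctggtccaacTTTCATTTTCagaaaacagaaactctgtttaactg
Gbp7, chr3:142530258-142530317, plus strand: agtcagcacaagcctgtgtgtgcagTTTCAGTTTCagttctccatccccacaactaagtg
Gbp2, chr3:142620579-142620638, plus strand: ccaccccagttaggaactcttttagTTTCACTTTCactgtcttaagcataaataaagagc
Irgm2, chr11:58214888-58214947, plus strand: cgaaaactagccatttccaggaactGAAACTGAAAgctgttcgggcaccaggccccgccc
Igtp, chr11:58199497-58199555, plus strand: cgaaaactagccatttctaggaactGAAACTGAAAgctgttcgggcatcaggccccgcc
Oas3, chr5:120777700-120777759, minus strand: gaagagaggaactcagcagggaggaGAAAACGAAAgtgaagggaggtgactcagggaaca
Oas1a, chr5:120907526-120907564, minus strand: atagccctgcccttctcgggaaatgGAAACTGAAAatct
Ifit1bl2, chr19:34640760-34640819, minus strand: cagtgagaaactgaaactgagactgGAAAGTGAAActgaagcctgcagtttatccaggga
Ifit1bl1, chr19:34599428-34599475, minus strand: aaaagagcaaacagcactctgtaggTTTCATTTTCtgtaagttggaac
Ifitm2, chr7:140955973-140956032, minus strand: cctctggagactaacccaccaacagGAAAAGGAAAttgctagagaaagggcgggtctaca
Ifitm3, chr7:141010723-141010752, minus strand: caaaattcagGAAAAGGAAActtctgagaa
Ifi213, chr1:173599311-173599370, minus strand: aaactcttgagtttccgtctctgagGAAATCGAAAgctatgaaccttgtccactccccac
Ifi206, chr1:173491324-173491383, minus strand: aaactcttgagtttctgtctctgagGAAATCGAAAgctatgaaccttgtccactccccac
Ddx58, chr4:40239804-40239833, minus strand: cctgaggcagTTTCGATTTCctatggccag
Ifih1, chr2:62646206-62646233, minus strand: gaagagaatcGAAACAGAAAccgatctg

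The ISRE core was in 32 of the 58 windows of interferon-induced genes (55.2%, interval 41.5 to 68.3), against 3.44% of all 32851 windows in the table. Counted by gene, 31 of 49 members had a core (63.3%), against 3.99% of the 27025 genes with a window. Of those 27025 genes 17491 are protein coding, as are all 49 members, so the shares of all windows cover other kinds of gene too. The longer form, in which AG comes before the core and which therefore overlaps it, stood in 14 member windows (24.1%) and in 0.271% of all windows. The middle of the core nearest to the start lay between 160 bp upstream and 37 bp downstream of it, with a median place of -47 bp. In all, the member windows held 45 matches at 43 places in the genome, since the windows of neighbouring genes can overlap. The GAS core TTCNNNGAA was in 11 member windows on either strand (19.0%, interval 9.87 to 31.4), against 8.3% of all windows, with 2 matches each in Gbp5 and Gbp7. The core is part of what these genes are known for, so its share describes the windows and is no result of the ATAC-seq libraries.

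Most of these starts had a peak, in at least 1 of the cell types. Of the 32 windows with a core, 25 had a peak centre within 1 kb of the start, whichever gene the list gives that peak to (78.1%), against 43.8% of all windows with a core. In 21 of them the bounds of the nearest peak held the core itself, as in Isg15, whose peak centre lay 52 bp upstream of the start and which has 3 overlapping cores, the nearest at place -61. Windows of interferon-induced genes without a core were open as well. Of the 43 windows with a peak 18 held none, among them both IFI44 genes, Ifitm1, Ifitm6 and Oasl1. Over all 58 member windows 43 had a peak (74.1%, interval 61.0 to 84.7), against 49.0% of all windows, which include those of noncoding genes. Counted by gene, 37 of 49 members had such a peak (75.5%, interval 61.1 to 86.7), against 61.7% of 17491 protein-coding genes. A core stood in 58.1% of the member windows with a peak and in 7 of the 15 without (46.7%). The difference was not tested.

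**Figure D1:**
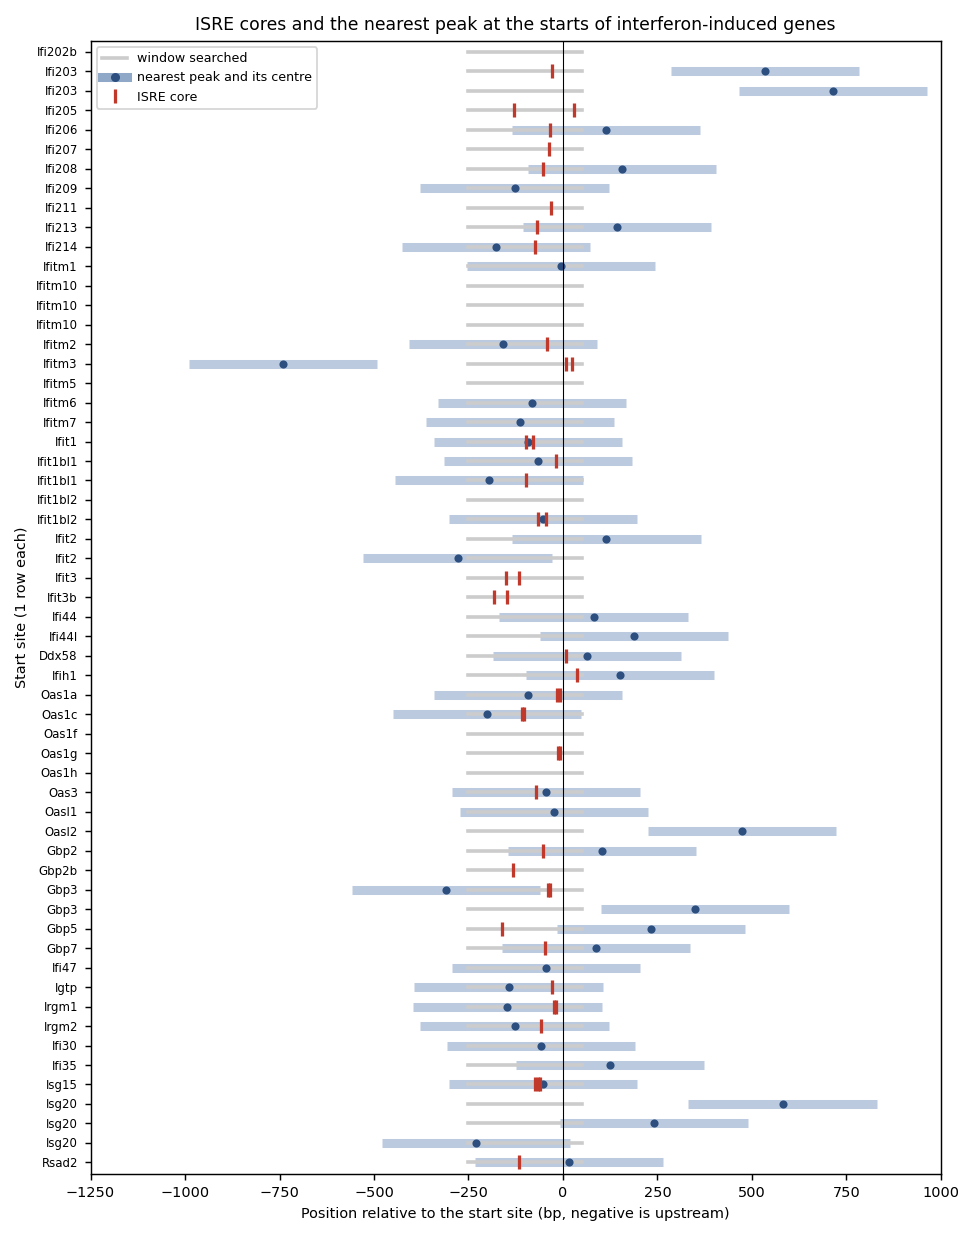
ISRE cores (red ticks) and the nearest peak (blue bar, dot at its centre) around 58 start sites of 49 interferon-induced genes, in bp from the start, with the searched window in grey. A peak is drawn where its centre lies within 1 kb, as for 43 of the starts, and the core nearest to a start sits between 160 bp upstream and 37 bp downstream of it.

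These open promoters were poor in CpG. The median window of an interferon-induced gene with a peak held 4 CpG dinucleotides (range 0 to 15) and 49.0% GC, against 19 CpG and 60.0% GC in all windows with a peak. Of all windows with 3 or fewer CpG, 13.8% (interval 13.1 to 14.5) had a peak within 1 kb, and of the member windows with as few CpG, 21 of 31 did (67.7%, interval 48.6 to 83.3). Among all windows with as few CpG that hold a core, 21.2% had a peak. With over 3 CpG the shares were 65.1% of all windows and 22 of 27 member windows (81.5%). Ifit1bl1, whose windows hold 0 CpG, and Gbp2, with 2, are examples of CpG-poor starts with a peak. The limit of 3 was chosen after the data had been seen, and the difference was not tested. All windows here include those of genes that are not protein coding, while each member with a window is protein coding.

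Over all peaks, interferon-induced genes had their peaks close to the start. Of their 195 peaks, 58 lay within 1 kb of a transcription start site (TSS; 29.7%, interval 23.4 to 36.7), against 16.2% of all peaks. Another 72 (36.9%) lay 1 to 10 kb away, against 21.1% of all peaks, and 1 peak (0.513%) lay over 50 kb away, against 25.7%. The median distance was 4.5 kb, against 18.2 kb for all peaks. A peak goes to the nearest TSS, so genes that crowd together have near peaks by construction, and 48 of the 68 members sit in 7 clusters of 3 or more members. A count that does not use the given gene was therefore made around the start sites. Within 10 kb of the start, members had a mean of 2.76 ± 1.8 peaks (SD, n = 49 genes; median 2), against 1.86 ± 1.73 (n = 17491; median 2) for protein-coding genes. Within 50 kb the median was 10 peaks against 6, and 5 members (10.2%) had none within 10 kb, against 24.9% of coding genes. In a cluster the stretches around the starts overlap, so 1 peak can count for several members. The 49 genes are therefore not independent.

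**Figure D2:**
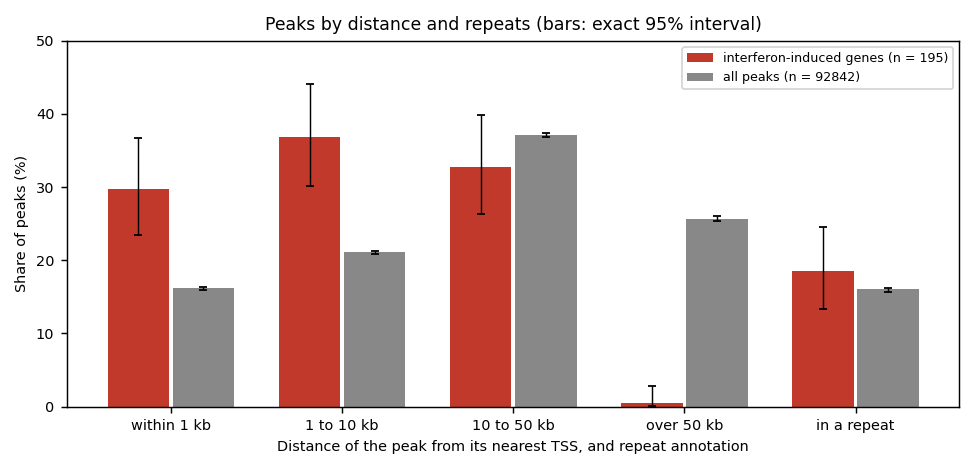
Share of peaks (%) by distance to the nearest TSS and in repeats, for 195 peaks of interferon-induced genes (red) and all 92842 peaks (grey), with exact 95% intervals as error bars. The red bars stand at 29.7% within 1 kb and 36.9% from 1 to 10 kb, above the grey bars at 16.2% and 21.1%, and at 0.513% over 50 kb, below the grey bar at 25.7%.

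Counted by gene, 42 of 62 protein-coding members of the gene table had a peak of their own within 1 kb of the TSS (67.7%, interval 54.7 to 79.1), against 55.5% of 21883 protein-coding genes. Among members named in the list the share was 75.0%, close to the 73.8% of all coding genes with at least 1 peak. The median number of peaks per member was 3, as for all genes of the list. The mean was lower, at 3.48 ± 2.33 (SD, n = 56 genes) against 4.86 ± 5.33 (n = 19105). In all, 13 members had 1 peak, 21 had 2 or 3 and 22 had 4 or more. With 7 or more peaks stood 7 members (12.5%), against 22.3% of all genes, namely Mx1, Isg20, Irgm2, Irgm1, Ifitm3, Ifitm10 and Ddx58.

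**Figure D3:**
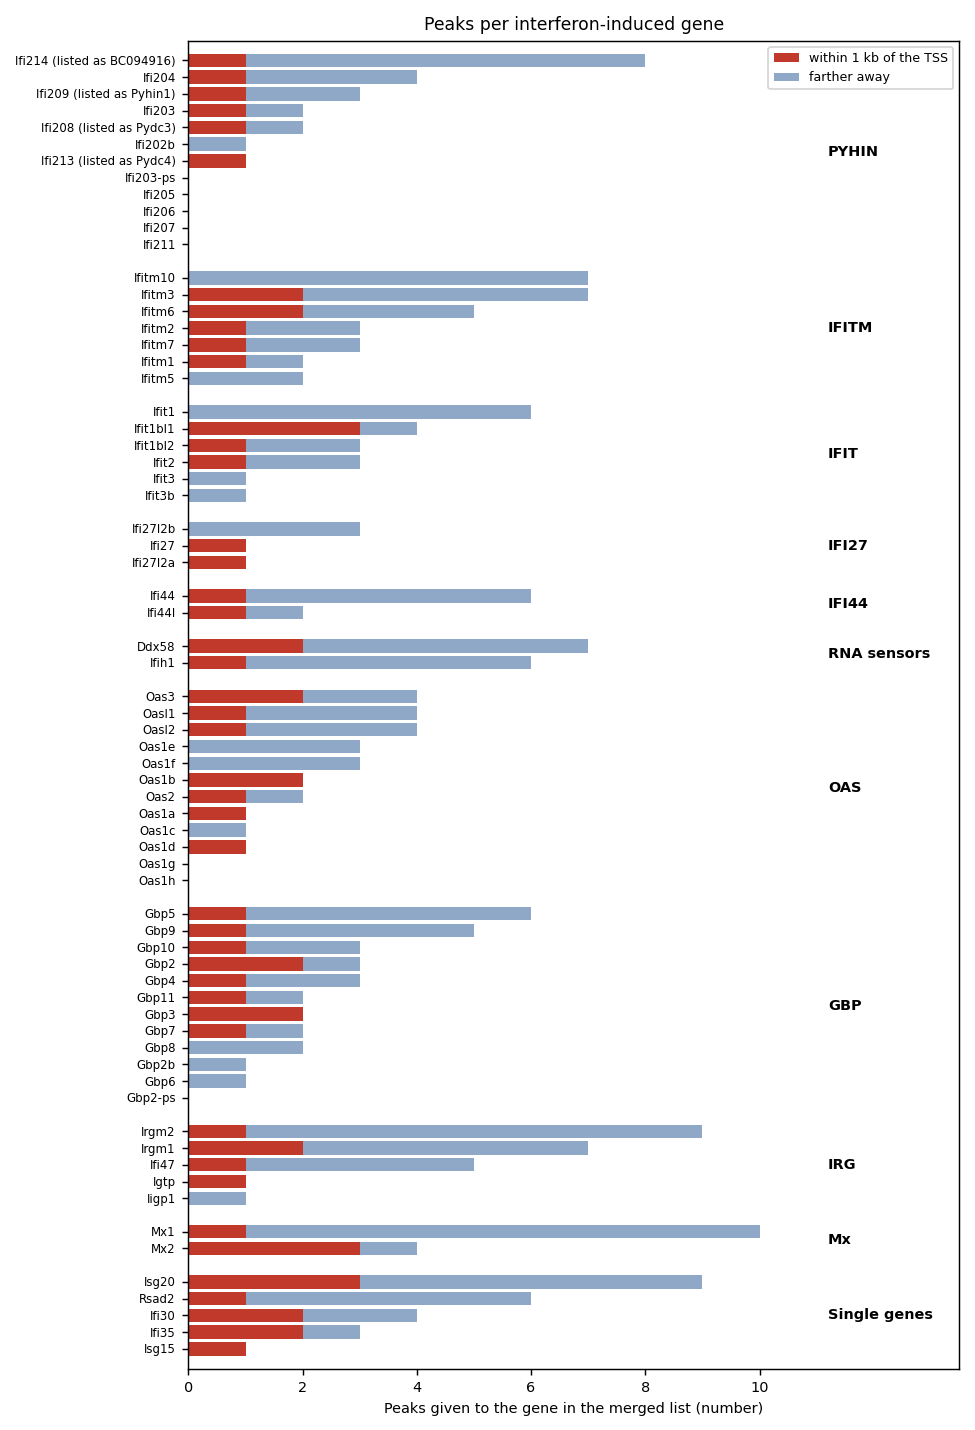
Number of peaks given to each of 68 interferon-induced genes, grouped by family, with peaks within 1 kb of the TSS in red and farther peaks in blue. Mx1 leads with 10, Isg20 and Irgm2 have 9 each, and 8 genes have none under any name.

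The sensors of foreign RNA were open at their starts and along their bodies. Ddx58 encodes RIG-I, which binds viral RNA ends, and had 7 peaks. Its nearest peak (chromosome 4, 40239513 to 40240011) had its centre 63 bp after the TSS and another lay 643 bp after it in intron 1. Ifih1 encodes MDA5, the sensor of long double-stranded RNA, and had 6 peaks, of which 1 lay in the 5′ UTR (chromosome 2, 62645855 to 62646353) and 4 in its first 3 introns. Of the 13 peaks of these genes, 2 lay in repeats, both LTR elements at Ddx58.

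The oligoadenylate synthetases are a family whose active enzymes make the second messenger that switches on RNase L, which degrades RNA. Of 12 genes in the table, 10 were named in the list, with 25 peaks and a median of 2.5 per gene. Oas3, Oasl1 and Oasl2 led with 4 peaks each, and the centre of the nearest peak lay 44 bp before the TSS of Oas3 (chromosome 5, 120777454 to 120777952) and 24 bp before that of Oasl1 (114922967 to 114923465). Oas1b and Oas1c share an open promoter: the peak at 120812465 to 120812963 lay 76 bp after the TSS of Oas1b and 200 bp before the start of Oas1c, and the list gives it to Oas1b. C57BL/6 mice are known to carry a truncated Oas1b, and the gene table holds it as a transcribed pseudogene. Oas1g and Oas1h had no peak, and the nearest peaks lay 20004 and 16530 bp upstream of their starts.

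The IFIT proteins bind foreign RNA and block its translation, and their 6 genes lie within 112.4 kb on chromosome 19 with 13 peaks in that span. Ifit1 had 6 peaks in the list, the nearest 15816 bp away, so by the given gene it has no promoter peak. Its start is nevertheless covered: the peak at 34640547 to 34641045, given to Ifit1bl2, has its centre 93 bp upstream of the start of Ifit1, which runs in the other direction. The stretch between both starts is shown because it holds 2 ISRE cores (capitals) that count for both genes, and the peak spans it whole.
Ifit1bl2 to Ifit1, chr19:34640744-34640888, plus strand: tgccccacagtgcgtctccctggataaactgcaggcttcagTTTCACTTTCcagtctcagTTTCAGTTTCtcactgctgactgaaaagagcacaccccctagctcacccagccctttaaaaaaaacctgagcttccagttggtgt
Of the other genes of the cluster, Ifit2 had a peak 115 bp after its TSS (34550560 to 34551058) and Ifit1bl1 had peaks at both of its listed starts. The 3 farthest peaks of Ifit1, 37734 to 44165 bp away, lay in introns of Slc16a12.

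Some interferon-induced genes had ISRE cores at the start and no peak there. Ifit3 and Ifit3b each had 2 cores in the window, and their nearest peaks lay 10070 and 5794 bp away. Oas1g also has cores at its start, and its window was 85.3% identical to that of Oas1a, which had a peak centred 92 bp upstream. Their sequences, again with 1 core in capitals, are shown for comparison with those above, and were picked with their values in view.
Ifit3, chr19:34583382-34583441, plus strand: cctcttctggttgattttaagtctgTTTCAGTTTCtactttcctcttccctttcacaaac
Ifit3b, chr19:34607778-34607837, plus strand: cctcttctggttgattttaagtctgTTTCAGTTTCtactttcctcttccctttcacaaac
Oas1g, chr5:120887614-120887650, minus strand: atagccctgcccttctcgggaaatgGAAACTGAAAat
The stretches of Ifit3 and Ifit3b are the same letter for letter, and their whole windows were 76.2% identical. Reads that match such copies equally well may be placed at either or dropped, and how the reads were placed is not given in the sources used here. In windows with a peak, the identity to the closest window of the same family, single genes left out, had a median of 52.1%, and in those without a peak 67.3%. The most alike windows had peaks: those of Ifi209 and Ifi214 (95.3%), of Ifi208 and Ifi213 (89.5%) and of Ifi206 (87.5% to Ifi208). Next came those of Ifi207 and Ifi211 (85.9%), each with a core and with no peak within 1 kb. Gbp2b (1 core) and Ifi205 (2 cores) had no peak within 1 kb either, and no close copy. Their closest identities were 53.8% and 53.4%. The part of copy likeness in these missing peaks was not tested.

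The guanylate-binding proteins are large GTPases that coat and break the vacuoles of intracellular microbes. The 11 genes named in the list had 30 peaks with a median of 2, and 8 had a promoter peak. Gbp5, which also promotes inflammasome assembly, led with 6 peaks, of which 5 lay 3106 to 22289 bp upstream and 1 in intron 1 (chromosome 3, 142496917 to 142497415), 232 bp after the TSS. Gbp9 followed with 5, and Gbp10, Gbp2 and Gbp4 had 3 each. Gbp2b, Gbp6 and Gbp8 had no promoter peak, with their nearest peaks 4162, 2679 and 9080 bp away. The cluster on chromosome 5 had 4.79 peaks per 100 kb over 334 kb with a stretch of 55.0 kb without any, and that on chromosome 3 had 7.2 per 100 kb over 166.6 kb.

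The immunity-related GTPases act on the same vacuoles, and Irgm1, Irgm2 and Igtp (Irgm3) keep the others in check on the cell's own membranes. Irgm2 had 9 peaks, from the promoter peak at chromosome 11, 58214600 to 58215098, 128 bp upstream, to 1 that lay 45303 bp downstream. Irgm1 had 7, of which 2 lay within 1 kb of its start (48871318 to 48871816 for the nearest). Igtp had 1 peak, 144 bp upstream (58199163 to 58199661). The windows of Irgm2 and Igtp were 73.5% identical, and each had the same core letters in the sequences above. Ifi47 had 5 peaks, 1 of them in an intron of Olfr56. Iigp1 had a single peak in intron 1 (chromosome 18, 60382262 to 60382760), 6482 bp from the TSS.

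Mx1 and Mx2 encode dynamin-like GTPases against influenza and other viruses, and C57BL/6 mice are known to carry defective alleles of them. The gene table holds each as a transcribed pseudogene, and both had a promoter peak. Mx1 had 10 peaks, including 1 centred 169 bp upstream of the TSS (chromosome 16, 97462826 to 97463324). Of its others, 3 lay in introns of Bace2 and 2 in introns of Fam3b. Mx2 had 4 peaks, of which 3 lay within 1 kb of the TSS, the nearest 15 bp upstream (97535817 to 97536315).

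The IFITM proteins sit in membranes and hinder the fusion of viruses with the cell. Their 5 genes from Ifitm5 to Ifitm6 on chromosome 7 held 12 peaks in 67.9 kb, or 17.7 per 100 kb, the densest of the 7 clusters. Between the first and last gene of the autosomes the value was 3.72 per 100 kb. That average also covers stretches without genes, while a cluster ends at its outer genes, so the values are of unlike spans. Ifitm3, the main antiviral member, had 7 peaks, with 1 peak 741 bp before and 1 peak 845 bp after the TSS. Ifitm1 had a peak centred 6 bp before its TSS (140967821 to 140968319). Ifitm6 had 5 peaks, of which 3 lay in LTR elements 5481 to 21406 bp upstream. Ifitm10 had 7 peaks, the nearest 2255 bp away, and 6 of the 7 lay in its own introns. The peaks given to Ifitm5 lay at the end of the neighbouring gene Pgghg.

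The PYHIN proteins of the Ifi200 cluster bind DNA and take part in inflammasome and interferon responses. The gene table holds 12 genes of the cluster with an Ifi name, and PYHIN genes with other names are not counted here. Only 3 of the 12 had peaks under a name that the rule catches: Ifi204 with 4, Ifi203 with 2 and Ifi202b with 1. The list holds 4 others under older names, namely Ifi214 (as BC094916, 8 peaks), Ifi209 (as Pyhin1, 3), Ifi208 (as Pydc3, 2) and Ifi213 (as Pydc4, 1), and each of these had a promoter peak. These 14 peaks are not among the 195. Ifi206 had no peak of its own, yet the peak at 173490956 to 173491454 lay 113 bp after its start and was given to BC094916, 44752 bp away. Ifi205, Ifi207 and Ifi211 had no peak, with the nearest 9235, 25416 and 28911 bp upstream of their starts, and neither had the pseudogene Ifi203-ps. The identity to the closest window ran from 53.0% at a start of Ifi203 to 95.3% for Ifi209 and Ifi214. For the most alike copies, the one to which a read belongs may be uncertain, which was not tested. Over 563.3 kb the cluster held 25 peaks under any name, or 4.44 per 100 kb, with 88.3 kb without any.

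**Figure D4:**
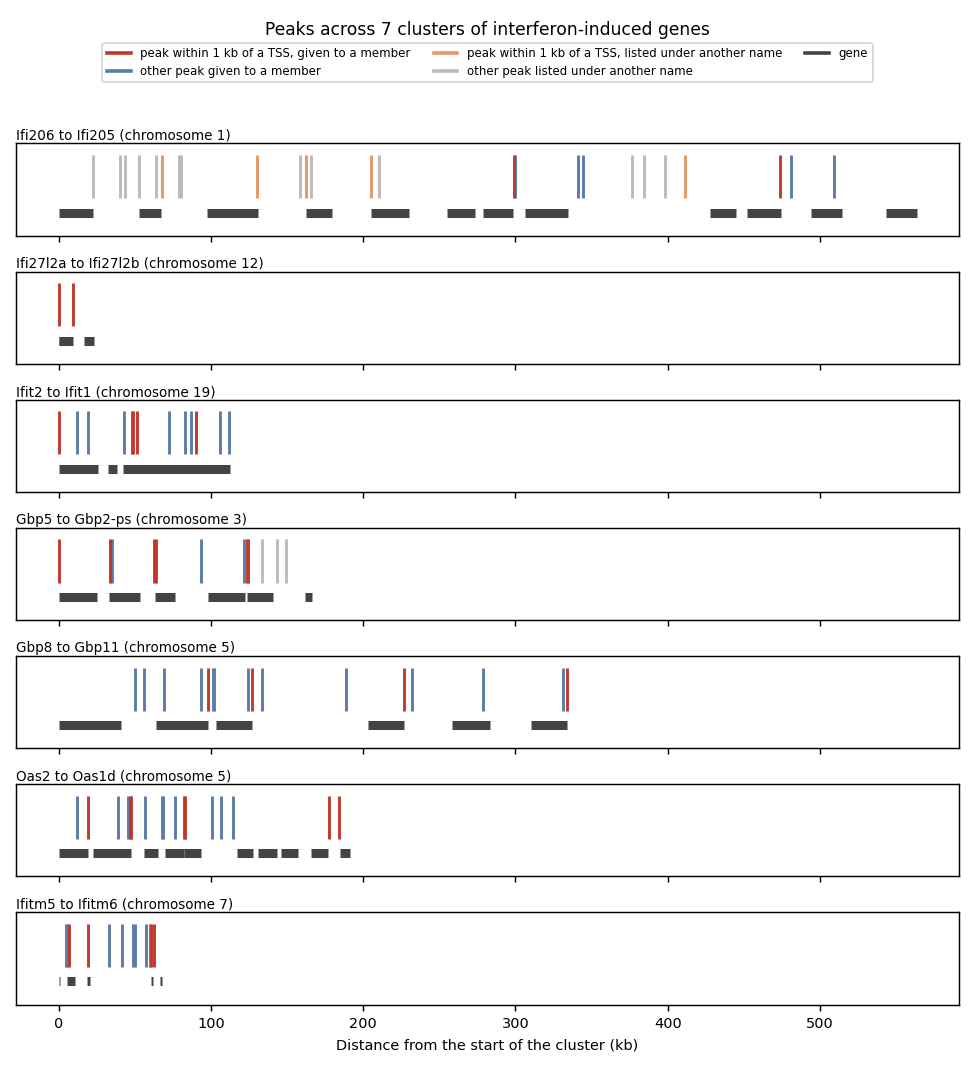
Peaks (vertical lines) and genes (dark bars) across the 7 clusters with 3 or more interferon-induced genes, in kb from the start of each cluster. Red and blue lines are given to members, orange and grey lines to other gene names, which include 4 PYHIN genes, and the Ifi206 to Ifi205 cluster spans 563.3 kb against 67.9 kb for Ifitm5 to Ifitm6.

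The remaining members are single genes or small groups. Isg15, a ubiquitin-like modifier, had 1 peak, at its promoter (chromosome 4, 156200621 to 156201119). Isg20, an exonuclease of single-stranded RNA, had 9, of which 3 lay within 1 kb of a TSS and 5 lay 10088 to 28416 bp downstream of it. Rsad2 encodes viperin, which makes a chain-terminating nucleotide, and had 6, with 1 peak centred 16 bp after the TSS (chromosome 12, 26456187 to 26456685). Ifi30, a lysosomal thiol reductase of antigen processing, had 4 peaks and Ifi35 had 3, each with 2 within 1 kb. Ifi44 had 6, including the farthest peak of any member, 102145 bp downstream, and Ifi44l had 2. Ifi27 and Ifi27l2a had 1 each, at the start, while the 3 peaks of Ifi27l2b lay 34244 to 37420 bp upstream.

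**Figure D5:**
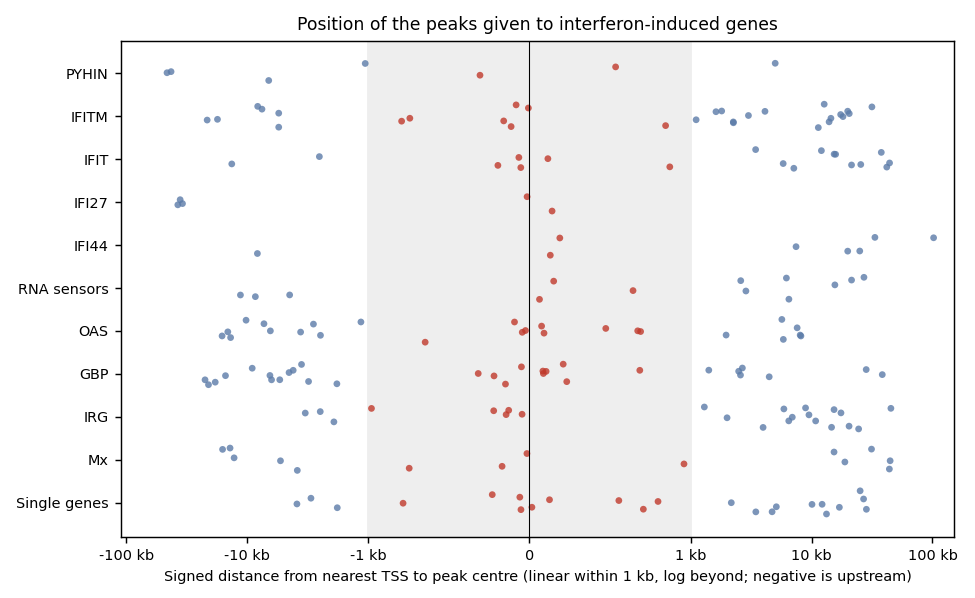
Signed distance from the nearest TSS to the centre of each of the 195 peaks, by family, linear within 1 kb (grey band) and log beyond, with negative values upstream. Red points are the 58 peaks within 1 kb, and the farthest point, at the right of the IFI44 row, belongs to Ifi44.

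Of the peaks of interferon-induced genes 36 of 195 were annotated as a repeat (18.5%, interval 13.3 to 24.6), against 16.0% of all peaks. The annotation names repeats among intron and intergenic peaks alone, and there the members' share was 36 of 134 (26.9%, interval 19.6 to 35.2), against 19.6% of all such peaks. The next shares are again of peaks of every annotation. Of the 195 peaks, LTR elements, the remains of retroviruses, held 17 (8.72%, against 6.59% of all peaks). LINEs held 13 (6.67%, against 3.29%) and SINEs 5 (2.56%, against 4.14%). Of the 17 LTR peaks, 7 lay in ERVK elements (41.2%, interval 18.4 to 67.1, against 20.7% of all LTR peaks), such as the RMER17A element 1056 bp upstream of Ifi204 and the RLTR12E element in intron 1 of Ifi35, and 6 in ERVL-MaLR elements (35.3%, against 59.8%). By position, 99 of the 195 peaks (50.8%) lay in the gene that they are given to or at its ends, 6 in another member and 18 (9.23%) in a gene that is no member, among them Bace2, Slc16a12 and Bmerb1. The other peaks were 68 intergenic ones and 4 in transcripts without a match in the gene table. Which gene a peak acts on was not measured.

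The genes that carry the interferon signal are described beside the shares above, 55.5% of all protein-coding genes with a promoter peak and 73.8% of those with any peak. All 6 receptor genes had a promoter peak, with 5 to 17 peaks, led by Ifngr1 with 17 and Ifngr2 with 14, the chains of the type II receptor. The genes of the receptor-bound kinases Jak1 and Jak2 had one as well, with 24 and 12 peaks in all. Tyk2, the kinase of the same family at the type I receptor, had 4 peaks and Irf9 had 1, each with a promoter peak. Of 8 interferon regulatory factors 6 had one of their own, with Irf8 at 24 and Irf4 at 22 peaks. The nearest peak given to Irf2 lay 1457 bp from the TSS and that given to Irf3 7056 bp away. By position, however, Irf2 had a peak within 1 kb of a start, whichever gene the list gives it to. All 14 adaptors and other sensors, led by the DNA sensor Aim2 with 16 peaks, and all 9 negative regulators, led by Socs1 with 22, had a promoter peak. Of 20 other induced effectors, which were listed for this work, 18 had one, with a median of 3 peaks, as in the named members. Parp9 and Psmb9 had none of their own, and peaks given to neighbouring genes are not counted in these lists.

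The interferon genes themselves had few promoter peaks. Only 2 of 21 ligand genes, Ifng and Ifna4, had a promoter peak, and 10 had no peak at all, among them Ifna5, Ifna6 and Ifna9. Ifnb1, the first type I interferon made by most infected cells, had 7 peaks, the nearest 6880 bp away. Yet the ISRE core stood in 11 of the 20 ligand genes with a window, against 0 of 5 receptor genes and 4 of 16 other induced effectors (Bst2, Eif2ak2, Trim21 and Trim30a). Of those 11, only Ifna4 had a peak of any gene within 1 kb of the start, against 24 of the 31 interferon-induced genes with a core, and the difference was not tested. The alpha interferon genes are close copies of each other, and the part of this in the lack of peaks was not tested.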

How the data were processed

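ATAC-seq was made from 14 libraries of 7 sorted cell types, per the labels. The values used are those of 1 deposited list of merged peaks of all cell types. Per the file header, the authors annotated it with annotatePeaks.pl for mm10. HOMER 4.10.2 is named in the submitters' processing notes. Not given in the sources used here are the aligner, peak caller, threshold and way of merging. Each peak is 499 bp wide. The distance to the nearest TSS in bp is used as deposited. The score column, as deposited, is 0 throughout and was not used.

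Members were found by name. Gene identifiers were matched to a RefSeq table of GRCm38.p6, the assembly of mm10, and all 56 names matched. Starts came from RefSeq promoter windows or, failing those, from the distances in the list. Of 43 members with a start in both, 41 agreed within 100 bp and the largest difference was 318 bp. A promoter peak has its centre within 1000 bp of a TSS. Clusters are members less than 300 kb apart. Windows of a family were compared by global alignment (Biopython 1.88). Motif search and name rule were tested on simulated data.

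The members and lists were chosen with earlier results of these data known, so counts and medians are given without tests. Named were the 3 members with the most peaks and those without a peak in each family or list, and members with a promoter peak. Other genes, such as those around peaks, were picked with their values in view. Members without a promoter window were Gbp4, Gbp6, Gbp8, Gbp9, Gbp10, Gbp11, Gbp2-ps, Ifi27, Ifi27l2a, Ifi27l2b, Iigp1, Mx1, Mx2, Oas1b, Oas1d, Oas1e, Oas2, Ifi203-ps and Ifi204. One gene of the signalling lists is not reported here.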

Additional observations from a re-analysis of the deposited data

How the results depend on the processing

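No paired analysis was possible because the merged list has no columns per library. All peaks have the same score, so no stricter threshold was tried. Depth is unknown, so a missing peak is not a closed site. Most shares changed little with the processing. The promoter share of the members' peaks was 21.0% within 500 bp (13.7% of all peaks) in place of 29.7% within 1 kb, and 35.4% within 2 kb (19.7%). The ISRE share was 24.1% with the longer form in place of 55.2%, as fewer letters are free, and 46.6% in the 150 bases before the start. Current symbols gave 209 peaks and synonyms 235, in place of 195, and 130 lay within 10 kb. The gene share with a promoter peak ran from 62.9% to 75.0% over its alternatives. The lowest was within 500 bp, against 52.3% of all protein-coding genes. The highest was for members named in the list, against 73.8% of coding genes with a peak, so there the shares were close. Without each family in turn the peak share stayed within 28.5% to 30.8%. Chosen after seeing the data, the repeat share over intron and intergenic peaks was 26.9% in place of 18.5%, since no other class can name a repeat, and a limit of 5 CpG in place of 3 gave 68.4% of member windows against 17.2% of all.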
